A study of Mus musculus with 23 samples.

Results

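G protein-coupled receptor kinases (GRKs) and beta-arrestins switch off activated receptors, and 7 of their genes were read in embryonic mouse hearts that carried engineered alleles of 3 of them. The 7 are Adrbk1 (the gene of GRK2), Adrbk2 (the gene of GRK3), Grk4, Grk5, Grk6, Arrb1 and Arrb2, chosen by family membership out of the 23458 genes of the count table. The 23 libraries were made from heart RNA of C57BL/6 mice at embryonic day 13.5, and the question was whether the family members left intact, Adrbk2, Grk4 and both arrestins, changed where the others were targeted. The 7 triple-knockout libraries (TKO) were labelled fl/fl for GRK2, fl/fl for GRK5 and KO/KO for GRK6, with Nkx2.5Cre. In the 8 haploinsufficient libraries (HAP) GRK2 was fl/wt, GRK5 again fl/fl, GRK6 again KO/KO, and Nkx2.5Cre was again present. The 8 wild-type libraries (WT) were wt/wt at all 3 genes and carried no Cre. TKO and HAP therefore share every GRK5 and GRK6 allele and differ by label at GRK2 alone. Nkx2.5Cre expresses a recombinase in the cardiac lineage, so cells of a whole heart outside that lineage can keep floxed genes intact. Whether each library came from a separate embryo is not stated, so p-values measure the spread between these libraries, which may be technical in part. In whole-heart RNA, fewer cells of a type and less RNA per cell cannot be told apart.

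An activated receptor is phosphorylated by a GRK on its intracellular parts. A beta-arrestin then binds, blocks coupling to the G protein and links the receptor to clathrin for uptake. GRK2 and GRK3 form a subfamily that is recruited to the membrane by G protein beta-gamma subunits, whereas GRK4, GRK5 and GRK6 form another that stays at the membrane. GRK2 and GRK5 are the kinases most often described in heart muscle, where they dampen beta-adrenergic signalling, and GRK4 is best known from testis and kidney. In mice, loss of GRK2 in the whole embryo is lethal before birth.

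The paralogs are similar enough in sequence that misplaced reads had to be considered before any level was read. In the deposited annotation, exons 2 to 14 of Grk5 and Grk6 had the same length in 13 of 13 pairs, and 1037 of their 1490 bases were identical (69.6%, between 53.8% and 90.6% by exon). Adrbk1 and Adrbk2 had equal lengths in 18 of 18 exon pairs, with 1290 of 1715 bases identical (75.2%, between 59.7% and 85.1%). The exon pairs shown here are those on which results turn: exon 3 of Adrbk1 was the only row of its exons 3 to 6 with enough counts to be tested, exon 8 of Grk6 held few counts in both GRK groups and many in WT, and exon 10 of Grk5 and of Grk6 held no count in any library. Letters were read 5′ to 3′ on the coding strand from the GENCODE transcripts of mm10, all are coding sequence, and capitals mark the bases that differ within a pair. Exons of Adrbk2 are numbered after their partners in Adrbk1.
Adrbk1 exon 3: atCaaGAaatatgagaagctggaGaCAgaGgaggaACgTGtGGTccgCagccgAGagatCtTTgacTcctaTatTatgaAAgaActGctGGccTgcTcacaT
Adrbk2 exon 3: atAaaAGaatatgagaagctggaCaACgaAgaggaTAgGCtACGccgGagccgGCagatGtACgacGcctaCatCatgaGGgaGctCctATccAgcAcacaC
Grk5 exon 8: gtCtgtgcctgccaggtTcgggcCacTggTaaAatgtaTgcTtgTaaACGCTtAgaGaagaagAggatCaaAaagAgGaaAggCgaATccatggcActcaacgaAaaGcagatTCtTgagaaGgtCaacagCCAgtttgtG
Grk6 exon 8: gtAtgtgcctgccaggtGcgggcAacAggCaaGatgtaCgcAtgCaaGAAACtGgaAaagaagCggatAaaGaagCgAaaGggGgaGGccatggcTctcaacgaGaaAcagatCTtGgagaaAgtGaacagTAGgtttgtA
Grk5 exon 10: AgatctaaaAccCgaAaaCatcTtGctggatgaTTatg
Grk6 exon 10: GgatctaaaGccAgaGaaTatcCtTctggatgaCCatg
These lie in mm10 at chr19:4292544-4292645 (minus strand) and chr5:112969168-112969269 (minus strand) for the first pair, chr19:61073389-61073529 and chr13:55451703-55451843 (both plus strand) for the second, and chr19:61079337-61079374 and chr13:55453047-55453084 (both plus strand) for the third. The first pair shares 70 of 102 bases, the second 104 of 141 and the third 29 of 38. No stretch of 50 bases, the length of a read, in the main transcript of any member matched the main transcript of another member with up to 2 mismatches. Reads of 1 member were thus distinct from the transcripts of the other 6 at that tolerance.

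Adrbk1, Grk5 and Grk6 are not single rows of the table. The authors counted each of their exons and untranslated parts as a feature of its own, in 56 rows, and whole-gene values here are sums over these rows. The counting mode is not given, and the rows appear to hold only reads that lie wholly inside them. A read that crosses a border between exons would then fall in no row, and the sums would leave out part of each gene. Positions from which a 50-base read lies inside a counted row made up 66.1% of the merged exon length for Adrbk1, 75.6% for Grk5 and 40.8% for Grk6. The exons 10 of Grk5 and Grk6, at 38 bases, are shorter than a read. Grk6 exons 18 and 19, of 1146 and 1144 bases, overlap almost entirely, and neither held a count in any library. Adrbk2, Grk4, Arrb1 and Arrb2 are ordinary rows over whole genes. Total counts ran from 6657734 to 13864731 in TKO, from 1757257 to 11025358 in HAP and from 3838166 to 14050559 in WT libraries, and levels are given in CPM, counts scaled to the library size after TMM normalisation. The summed level of 8 cardiomyocyte markers lay between 23003 and 45446 CPM in TKO, between 21694 and 44029 CPM in HAP and between 26097 and 40516 CPM in WT libraries. Cre ran from 8.23 to 24.9 CPM in TKO and from 9.90 to 23.97 CPM in HAP, against 0 to 0.859 CPM in WT libraries.

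Summed counts of all 3 targeted kinase genes were lower in TKO hearts than in WT hearts. None of the 4 intact family members passed the test in any comparison between genotypes. Of the 7 members, 3 were called in TKO against WT, all lower, where 1.19% of the 13941 other genes tested were called. In HAP against WT 2 of the 7 were called, again lower, beside 2.24% of the other genes. All members called were targeted genes. Both counts include Grk6, whose sum holds the exons nearly absent from both GRK groups. Its call follows from those exons and adds no support. The other calls were Adrbk1 and Grk5 in TKO and Grk5 in HAP. In TKO against HAP edgeR called 0 of the 7, beside 0.395% of the other genes, and only Adrbk1 had an unadjusted p under 0.05. DESeq2 also called 0 of the 7, where it called 269 of the 13941 other genes.

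**Figure D1:**
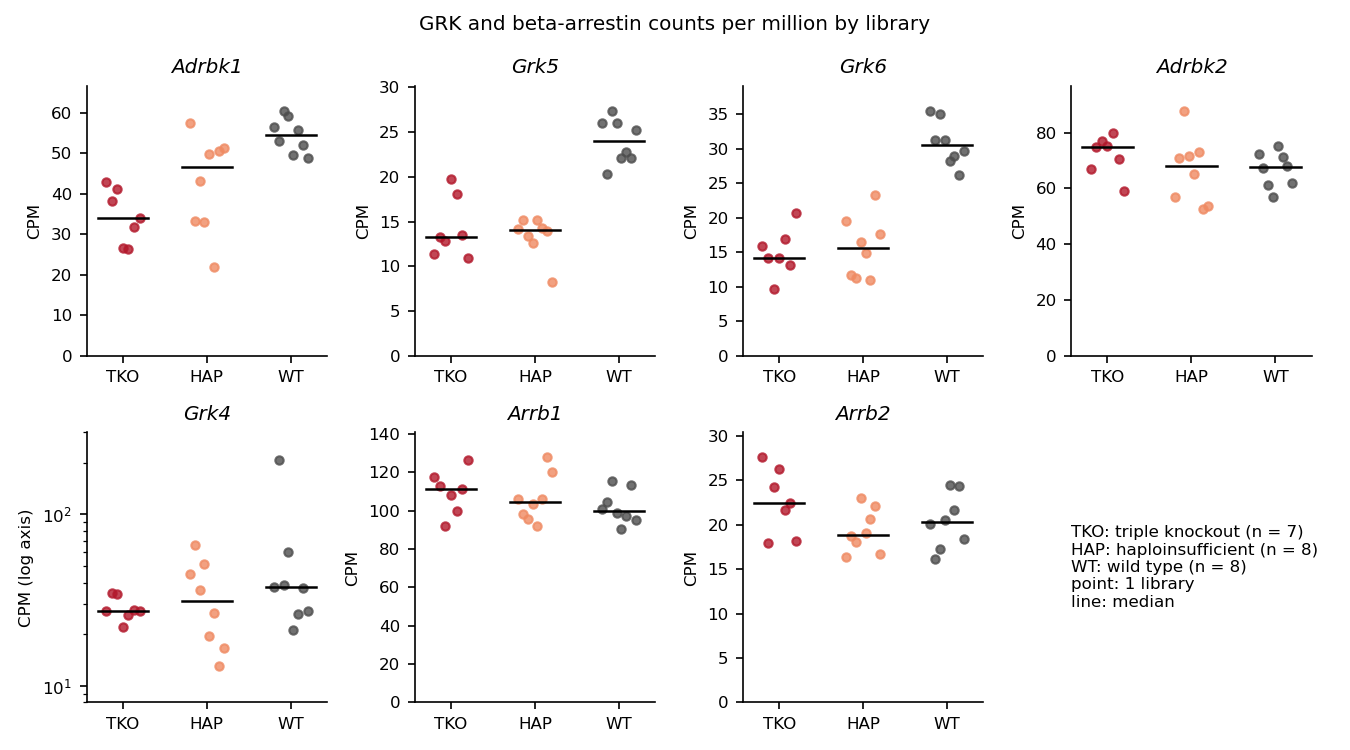
CPM (vertical axes; log axis for Grk4) of the 7 genes in 7 TKO, 8 HAP and 8 WT libraries, 1 point a library with a line at the group median. The TKO points of Adrbk1, Grk5 and Grk6 all lie below the WT points, the groups overlap for Adrbk2, Arrb1 and Arrb2, and 1 WT library stands at 206 CPM for Grk4.

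Adrbk1 (chromosome 19, 4286001 to 4305955, minus strand) encodes the kinase whose allele number separates TKO from HAP. It ran from 26.4 to 42.8 CPM in TKO (median 33.9), from 21.8 to 57.5 CPM in HAP (median 46.5) and from 48.9 to 60.5 CPM in WT libraries (median 54.4). Every TKO library was below every WT library, while HAP overlapped with both groups and was the most dispersed, at 42.6 ± 12.1 CPM against 54.4 ± 4.25 CPM in WT (SD, n = 8 each). Adrbk1 fell in TKO against WT (log2 fold change -0.65 ± 0.14 SE, edgeR adjusted p = 0.0119), a fold of 0.637 with a 95% interval of 0.521 to 0.777. Against WT, HAP gave -0.33 ± 0.14 (edgeR adjusted p = 0.207), and TKO against HAP gave -0.32 ± 0.14 (edgeR adjusted p = 0.279). The libraries fall into 2 sets of IDs, 1 to 12 and 19 to 30, whose meaning the labels do not give. TKO against WT gave -0.48 within IDs 1 to 12 (edgeR adjusted p = 0.255) and -0.80 within IDs 19 to 30 (edgeR adjusted p = 0.111), lower in both sets and called in neither. HAP replicates 1, 7 and 8, at 57.5, 50.5 and 51.3 CPM, carry high scores of lung, foregut, liver and thymus markers (2.01, 2.18 and 1.98, against -0.51 to 0.90 in WT). Without these and TKO replicates 1 and 7, which also score above 1.5, HAP against WT gave -0.58 ± 0.14 for Adrbk1 (edgeR adjusted p = 0.0510).

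Along Adrbk1 the mean CPM was lower in TKO than in WT in 20 of 22 rows. The others were a 5′ untranslated row, with 16 counts in TKO and 13 in WT, and exon 6, with 3 in TKO and 1 in WT. Of the 22 rows 8 had enough counts to be tested, with log2 fold changes in TKO against WT between -0.91 and -0.37. Exons 3 and 16 of these needed WT libraries to pass the filter on low counts. None was called, which is 0 of 8 by edgeR with 4 unadjusted p-values under 0.05 and 0 of 8 by DESeq2. Of the other genes in the table as deposited, edgeR called 1.18% in TKO against WT and 2.28% in HAP against WT. The row with the smallest p was exon 20, the last and longest (-0.56 ± 0.17, edgeR adjusted p = 0.123). With TKO and WT alone in the fit it was called (-0.57, edgeR adjusted p = 0.0350). It held 1151 counts in TKO, 963 in HAP and 1510 in WT libraries. In exon 18 the value was -0.71 ± 0.25, in exon 17 -0.91 ± 0.33, in exon 19 -0.79 ± 0.35 and in exon 3 -0.82 ± 0.45 (edgeR adjusted p = 0.211, 0.236, 0.391 and 0.543). Exon 10 was least negative, at -0.37 ± 0.35. Exons 3 to 6, a group picked with earlier results of these data known and therefore given without a test, held 88 counts in TKO, 62 in HAP and 150 in WT. Their pooled level in TKO was 0.549 of that in WT, with a counting interval of 0.417 to 0.719, and the other 18 rows stood at 0.674 (0.638 to 0.712). For HAP these ratios to WT were 0.625 (0.457 to 0.846) and 0.855 (0.805 to 0.907). Such intervals cover counting error only and no spread between libraries. Reads in exons 3 to 6 thus remained in both GRK groups.

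Grk5 (chromosome 19, 60889749 to 61092555, plus strand) encodes a kinase of the other subfamily and carried the same floxed alleles in both GRK groups. It ran from 10.9 to 19.7 CPM in TKO (median 13.2), from 8.26 to 15.2 CPM in HAP (median 14.0) and from 20.3 to 27.4 CPM in WT libraries (median 23.98). Neither GRK group overlapped with WT, and both overlapped with each other. Grk5 fell in TKO against WT (-0.76 ± 0.14, edgeR adjusted p = 0.00215) and in HAP against WT (-0.85 ± 0.14, edgeR adjusted p = 0.000616). TKO against HAP gave 0.09 ± 0.14, a fold of 1.06 with a 95% interval of 0.866 to 1.30. Within IDs 1 to 12 Grk5 was at -0.99 in TKO and -0.85 in HAP against WT (edgeR adjusted p = 0.0205 and 0.0812), and within IDs 19 to 30 at -0.58 and -0.83 (edgeR adjusted p = 0.360 and 0.0583).

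No single row of Grk5 was called, with 5 of 16 tested. In TKO against WT 4 of the 5 were negative, and unadjusted p-values were under 0.05 in exons 1, 12 and 16 (-0.82 ± 0.28, -0.77 ± 0.31 and -0.70 ± 0.31), while exons 13 and 15 were at -0.39 ± 0.36 and 0.15 ± 0.44. DESeq2 called none either. Exon 8 missed the filter on low counts, with 6 WT libraries and no TKO or HAP library at its CPM cutoff where 7 were needed. Where leaving out a TKO library let it pass, it was called in HAP against WT (without any 1 of the 7, edgeR adjusted p between 0.00109 and 0.00141) and in TKO against WT without TKO replicates 4, 5 or 6 (edgeR adjusted p between 0.0311 and 0.0404). Such calls rest on a row that passed through WT alone, so they add no support. Exons 7 and 8, again a group picked with earlier results known, held 57 counts in TKO, 23 in HAP and 156 in WT libraries. That is 0.342 of the WT level in TKO (counting interval 0.248 to 0.466) and 0.223 in HAP (0.137 to 0.347). The other 14 rows stood at 0.601 (0.550 to 0.656) in TKO and 0.597 (0.538 to 0.662) in HAP. Exon 8 alone had 47 counts in TKO, present in all 7 libraries, 15 counts in HAP, in 6 of 8, and 131 counts in WT. Reads from inside exon 8 were thus still present in both GRK groups, and the rest of the transcript was lower by a similar factor in both.

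Grk6 (chromosome 13, 55445334 to 55460927, plus strand) encodes the third targeted kinase, labelled KO/KO in TKO and HAP alike. It ran from 9.65 to 20.7 CPM in TKO (median 14.2), from 11.04 to 23.3 CPM in HAP (median 15.7) and from 26.2 to 35.6 CPM in WT libraries (median 30.5). All TKO and HAP libraries were below all WT libraries. Against WT the Grk6 sum was at -1.04 ± 0.15 in TKO and -0.94 ± 0.15 in HAP. This sum holds the exons nearly absent from both GRK groups, described below. It therefore had to be lower, and both values are given without a test. TKO against HAP gave -0.10 ± 0.16 (edgeR adjusted p = 0.802). Within IDs 1 to 12 the Grk6 sum was at -1.30 in TKO and -1.15 in HAP against WT. Within IDs 19 to 30 it was at -0.81 and -0.74, again without a test.

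The loss of Grk6 reads was uneven along the gene. Of 18 rows 8 were tested, and edgeR called exons 8 and 9 in each GRK group against WT. Both rows passed the filter through WT libraries alone, with no TKO or HAP library at the CPM cutoff, so they had to differ and are given by their counts without a test. Exon 8 held 1 count in the 7 TKO libraries, 7 counts in 3 of the 8 HAP libraries and 224 counts over all WT libraries. Exon 9 held 2 counts in TKO and 1 in HAP, against 4.34 ± 0.451 CPM in WT (SD, n = 8). Exons 3 to 7 were too low for the filter, and held 1 count in TKO, 4 in HAP and 372 in WT. The 7 exons 3 to 9 together stood at 0.00439 of the WT level in TKO (counting interval 0.00119 to 0.0113) and at 0.0213 in HAP (0.01096 to 0.0374), with no count in 4 of 7 TKO and 3 of 8 HAP libraries. The exons on either side kept reads in both GRK groups. The other 11 rows together stood at 0.914 of the WT level in TKO (0.836 to 0.9999) and 1.04 in HAP (0.940 to 1.15). Among them, exons 15 and 17 were at -0.42 ± 0.32 and -0.45 ± 0.32 in TKO against WT (edgeR adjusted p = 0.699 and 0.684). In HAP against WT they were at -0.59 ± 0.33 and -0.28 ± 0.33 (edgeR adjusted p = 0.363 and 0.705). Of the rows tested there, exon 2 had 69, 54 and 78 counts in TKO, HAP and WT and exon 12 had 388, 319 and 414, and exons 13 and 14 were on the positive side (0.42 ± 0.37 and 0.39 ± 0.42 in TKO against WT, edgeR adjusted p = 0.767 and 0.819). Exons 3 to 9 made up a median of 0% of the Grk6 count in TKO, 2.26% in HAP and 45.7% in WT libraries.

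**Figure D2:**
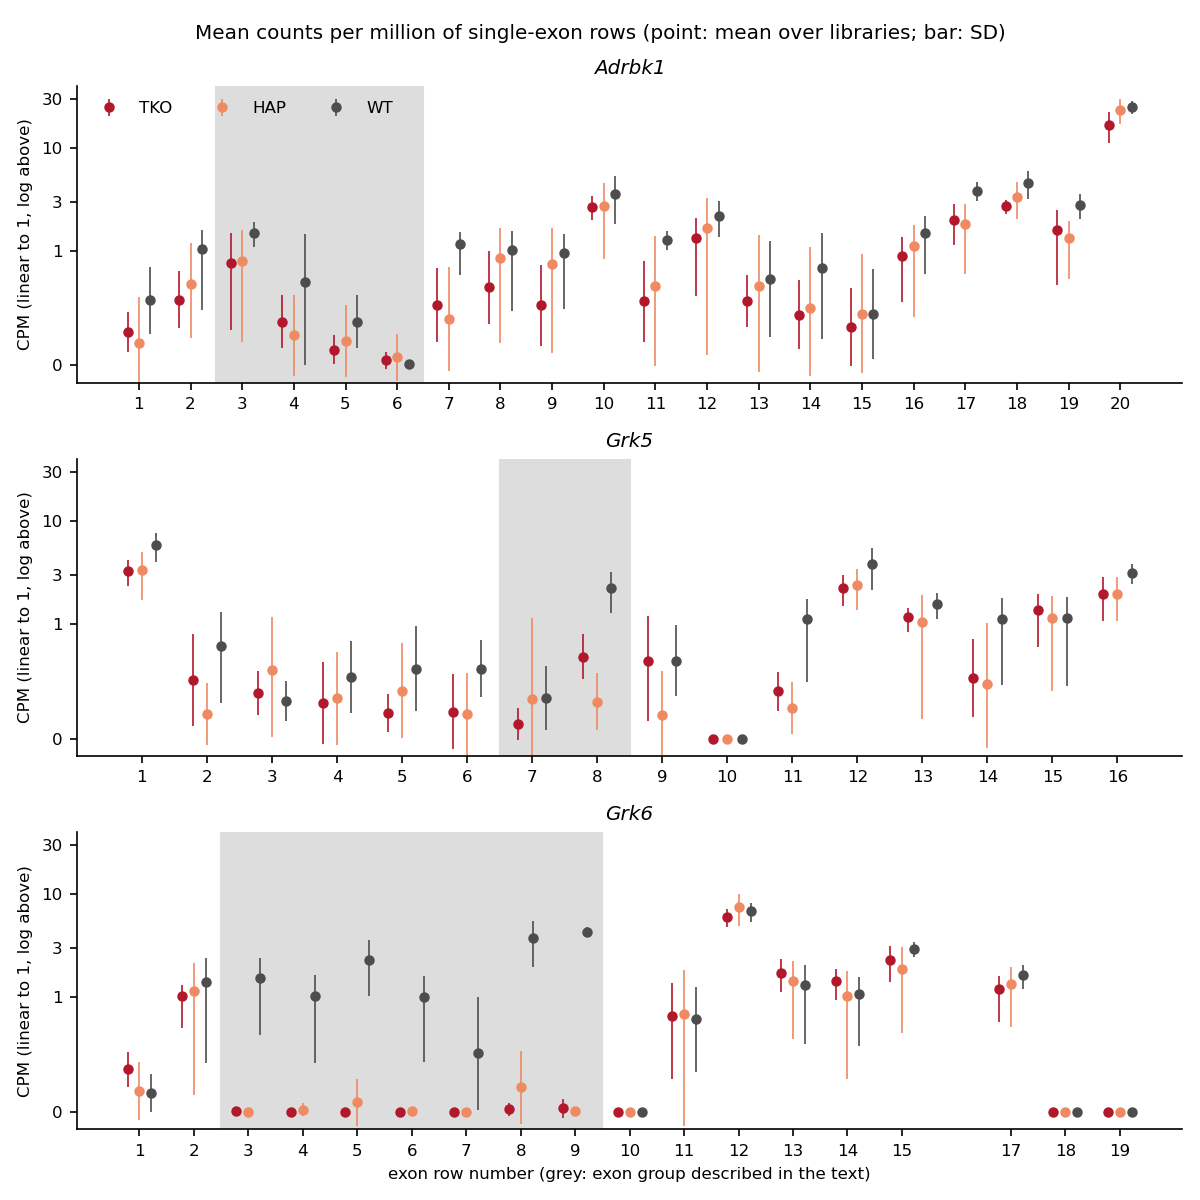
Mean CPM (vertical axis, linear up to 1 and logarithmic above) of each single-exon row of Adrbk1, Grk5 and Grk6 in TKO, HAP and WT libraries, with bars for the SD; grey bands mark Adrbk1 exons 3 to 6, Grk5 exons 7 and 8 and Grk6 exons 3 to 9. In Grk6 the TKO and HAP points drop to near 0 inside the band and lie closer to the WT points outside it. TKO means lie below WT means in every numbered exon of Adrbk1 but exon 6, and in 13 of the 16 rows of Grk5. The 5′ untranslated rows of Adrbk1 are not drawn.

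Adrbk2 (chromosome 5, 112910478 to 113015514, minus strand), the nearest paralog of Adrbk1, was not called between any genotypes. It ran from 59.0 to 80.0 CPM in TKO (median 74.8), from 52.6 to 87.9 CPM in HAP (median 67.9) and from 57.1 to 75.2 CPM in WT libraries (median 67.6). The groups overlapped over most of their ranges. TKO against WT gave 0.11 ± 0.10 (edgeR adjusted p = 0.783), a fold of 1.077 with a 95% interval of 0.935 to 1.24. HAP against WT gave -0.02 ± 0.10 (edgeR adjusted p = 0.952; fold 0.988, interval 0.860 to 1.14), and TKO against HAP 0.12 ± 0.10 (edgeR adjusted p = 0.579; fold 1.09, interval 0.944 to 1.26). A rise of more than 1.24-fold in TKO over WT, or a fall to below 0.935 of WT, lies outside the interval of this fit alone. Without the libraries that score above 1.5 for lung, foregut, liver and thymus markers, TKO against WT gave 0.18 ± 0.09 (edgeR adjusted p = 0.608). It gave 0.18 ± 0.15 within IDs 1 to 12 and 0.04 ± 0.13 within IDs 19 to 30 (edgeR adjusted p = 0.678 and 0.977). Within IDs 1 to 12 and IDs 19 to 30 HAP against WT ran in opposite directions, at 0.16 and -0.18 (edgeR adjusted p = 0.815 and 0.479).

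Whether libraries with less Adrbk1 had more Adrbk2 was asked inside each genotype on log2 CPM. Pearson r was -0.29 in TKO (n = 7, exact permutation p = 0.543), -0.56 in HAP (n = 8, exact permutation p = 0.146) and -0.42 in WT (n = 8, exact permutation p = 0.286). Spearman rho was -0.43, -0.76 and -0.40 (exact permutation p = 0.354, 0.0368 and 0.327). After adjustment over the 3 groups none passed, with 0.543, 0.428 and 0.428 for r and 0.354, 0.110 and 0.354 for rho. Without the 2 libraries farthest from the median of Adrbk1, r was 0.37 in TKO, -0.60 in HAP and -0.67 in WT, so the sign in TKO rested on its replicates 4 and 5. The 3 HAP libraries of high lung, foregut, liver and thymus score were high in Adrbk1 and, at 57.01, 52.6 and 53.8 CPM, were the lowest HAP libraries in Adrbk2. The part of these tissues in the relation was not tested.

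Grk4 (chromosome 5, 34660379 to 34755303, plus strand) was not called between genotypes, and 1 library dominated its spread. It ran from 22.1 to 34.8 CPM in TKO (median 27.4), from 13.1 to 66.6 CPM in HAP (median 31.2) and from 21.2 to 206 CPM in WT libraries (median 37.4). All groups overlapped, and the highest value, in WT replicate 2 at 206 CPM, compares with 66.6 CPM in the next highest of the 23 libraries. TKO against WT gave -0.70 ± 0.29 (edgeR unadjusted p = 0.0244, adjusted p = 0.340). HAP against WT gave -0.71 ± 0.28 (edgeR unadjusted p = 0.0174, adjusted p = 0.185). Without WT replicate 2 these values shrank to -0.26 and -0.21 (edgeR adjusted p = 0.706 and 0.611). The means without it were 28.5 ± 4.55 CPM in TKO (SD, n = 7), 34.3 ± 18.8 CPM in HAP (SD, n = 8) and 35.5 ± 12.9 CPM in WT (SD, n = 7).

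Grk4 differed between the library ID sets. Libraries with IDs 19 to 30 were lower than those with IDs 1 to 12 (-1.16 ± 0.24, edgeR adjusted p = 0.0411), where 0.194% of the other genes tested were called. WT replicate 2, at 206 CPM, is among IDs 1 to 12, and the difference between the sets was not refitted without it. None of the other 6 members was called between the sets. TKO against WT gave -1.41 ± 0.44 within IDs 1 to 12, which hold WT replicate 2, and -0.11 within IDs 19 to 30 (edgeR adjusted p = 0.177 and 0.947).

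The genes whose deviations from their group means followed Grk4 most closely over the 23 libraries, among 8119 with a mean log2 CPM of at least 4, included the pheromone receptor gene Vmn1r58 and the odorant receptor gene Olfr613 (Pearson r of 0.93 for both). Without WT replicate 2 both were at 0.88. Libraries share depth and composition, so these values are descriptions. In WT replicate 2 the 1450 olfactory and vomeronasal receptor genes summed to 1191 CPM, against 147 to 388 CPM in the other 22 libraries. Vmn1r58 stood at 211 CPM there against 27.2 to 78.4 CPM, Olfr613 at 347 against 41.7 to 128 CPM, and Grk1, the kinase of rhodopsin in rod cells, at 23.4 against 3.88 to 12.9 CPM. Genes not usually read in heart thus moved together with Grk4 across libraries, and the source of these counts was not tested.

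**Figure D3:**
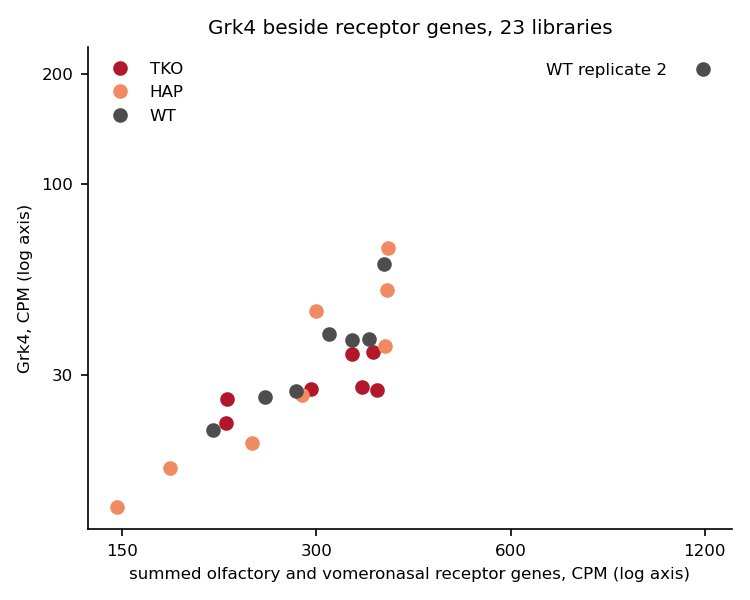
Grk4 CPM (vertical, log axis) against the summed CPM of 1450 olfactory and vomeronasal receptor genes (horizontal, log axis) in 7 TKO, 8 HAP and 8 WT libraries. WT replicate 2 stands apart at 206 CPM of Grk4 and 1191 CPM of receptor genes, and the other libraries lie along a rising band.

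Arrb1 (chromosome 7, 99535486 to 99606771, plus strand), which encodes beta-arrestin 1, ran from 92.2 to 126.5 CPM in TKO (median 111.5), from 92.2 to 128.02 CPM in HAP (median 104.7) and from 90.7 to 115.6 CPM in WT libraries (median 99.9). The groups overlapped nearly completely. TKO against WT gave 0.10 ± 0.09 (edgeR adjusted p = 0.742; fold 1.07, 95% interval 0.952 to 1.21), HAP against WT 0.06 ± 0.08 (edgeR adjusted p = 0.758) and TKO against HAP 0.04 ± 0.09 (edgeR adjusted p = 0.849). These were the narrowest intervals of the 7 genes. Mir326 lies inside Arrb1, and libraries without strand cannot separate their reads.

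Arrb2 (chromosome 11, 70432580 to 70440828, plus strand), which encodes beta-arrestin 2, ran from 17.9 to 27.6 CPM in TKO (median 22.5), from 16.4 to 23 CPM in HAP (median 18.9) and from 16.1 to 24.5 CPM in WT libraries (median 20.3). Its groups overlapped too, with 2 of 7 TKO libraries above the highest WT library. TKO against WT gave 0.15 ± 0.12 (edgeR adjusted p = 0.718; fold 1.11, 95% interval 0.940 to 1.32), HAP against WT -0.07 ± 0.12 (edgeR adjusted p = 0.804) and TKO against HAP 0.22 ± 0.12 (edgeR adjusted p = 0.378; fold 1.17, interval 0.983 to 1.39). By library ID set, TKO against WT was 0.34 within IDs 1 to 12 and -0.01 within IDs 19 to 30.

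**Figure D4:**
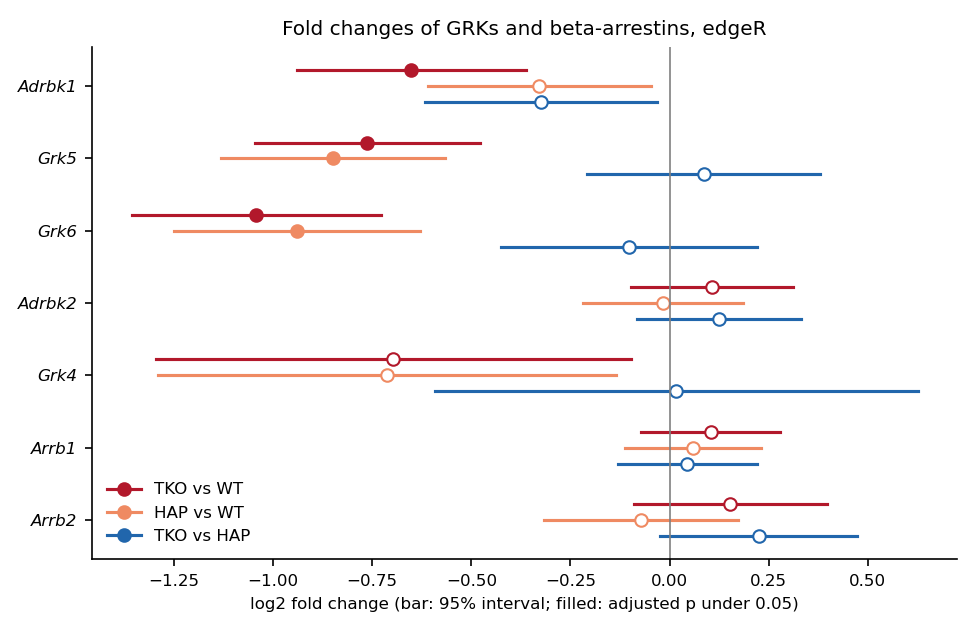
Log2 fold changes (horizontal) with 95% intervals of the 7 genes (rows) in TKO against WT, HAP against WT and TKO against HAP, edgeR; filled points passed the adjusted threshold of 0.05. Filled points are found for Adrbk1, Grk5 and Grk6 alone, and those of Grk6 follow from its nearly absent exons. The intervals of Adrbk2, Arrb1 and Arrb2 all include 0. The Grk4 intervals, with WT replicate 2 in the fit, lie below 0 in TKO and in HAP against WT. In TKO against HAP the Grk4 interval includes 0.

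The genes most like the other intact members by the same measure were Rasal2, Gramd1b and Ephx2 for Adrbk2 (r of 0.83, 0.82 and 0.81), Hira, Vav2 and Kctd15 for Arrb1 (0.81, 0.80 and 0.77) and Fxyd6, Oaz2 and Med10 for Arrb2 (0.73, 0.68 and 0.67). These are likewise descriptions over 23 libraries.

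On the authors' FPKM scale, which is per length and so allows levels of different genes to be set side by side, the 4 GRK genes read together had a smaller sum in TKO and HAP than in WT, and Adrbk2 was not called. Adrbk2 stood at 12.3 ± 1.41 FPKM in TKO (SD, n = 7), 10.97 ± 2.31 FPKM in HAP and 11.2 ± 1.54 FPKM in WT (SD, n = 8 each). Adrbk1, Grk5, Grk6 and Adrbk2 summed to 50.02 ± 6.47 FPKM in TKO, 52.7 ± 5.28 FPKM in HAP and 73.6 ± 4.16 FPKM in WT. The share of Adrbk2 in that sum ran from 18.7% to 28.9% in TKO (median 26.5%), from 13.9% to 28.5% in HAP (median 22.03%) and from 11.8% to 18.1% in WT libraries (median 15.6%). Every TKO library had a larger Adrbk2 share of this sum than every WT library. The other genes of the sum are the 3 targeted ones, so a fall in them raises the share even where Adrbk2 stays level. The share is therefore no support for a change in Adrbk2, which itself was not called. Grk4 is left out of the sum because of its value in WT replicate 2. With Grk4 in the sum the Adrbk2 share ran from 15.6% to 22.9% in TKO, from 11.9% to 22.7% in HAP and from 9.27% to 15.8% in WT libraries, so that TKO and WT overlapped. RNA of the targeted genes that lacks exons still counts towards their FPKM, so the sum is not one of intact transcripts. In TKO against WT limma on log2(FPKM + 0.1) gave -0.67 ± 0.14 for Adrbk1 and -0.77 ± 0.14 for Grk5 (limma adjusted p = 0.0200 and 0.00541). Grk6 was at -0.80 ± 0.14, given without a test as for its counts. Adrbk2 gave 0.15 ± 0.12, Arrb1 0.14 ± 0.09 and Arrb2 0.19 ± 0.12, none of these 3 called. Of the 17569 other genes 0.620% were called.

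**Figure D5:**
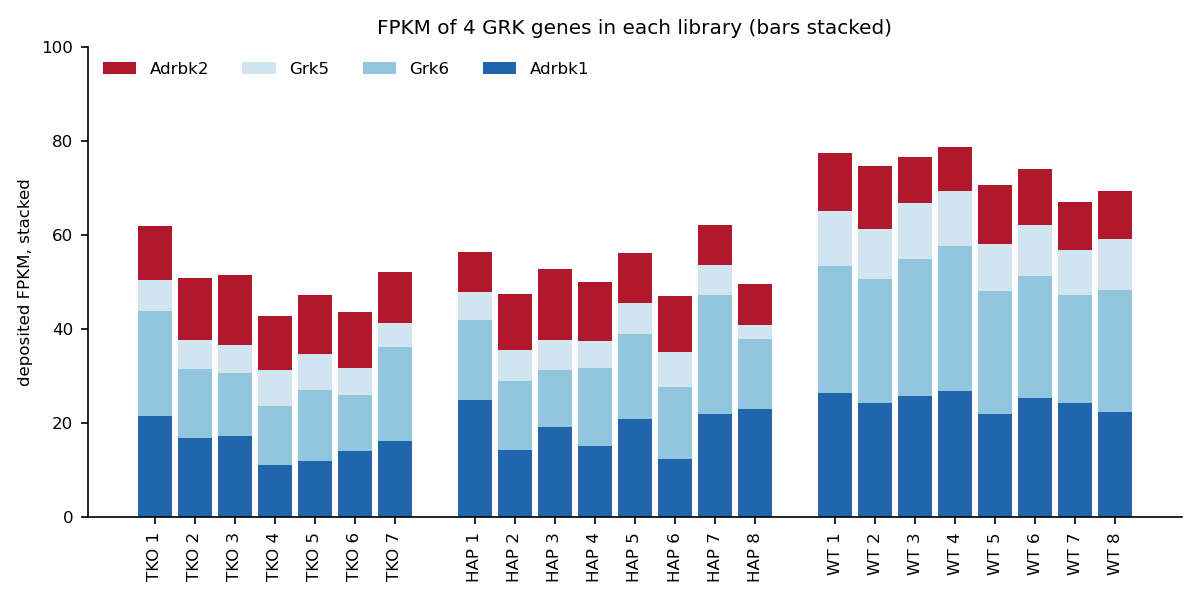
Deposited FPKM (vertical, stacked) of Adrbk1, Grk6, Grk5 and Adrbk2 in each of 7 TKO, 8 HAP and 8 WT libraries. The Adrbk2 part has group means between 10.97 and 12.3 FPKM, while the whole stack averages 50.02 in TKO, 52.7 in HAP and 73.6 in WT.

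The order of the members in WT hearts depended on how length was handled. Per kilobase of merged exon length, the WT means were 17.1 ± 1.34 CPM for Adrbk1, 14.4 ± 1.22 for Arrb1, 12.3 ± 13.3 for Grk4, 10.2 ± 1.55 for Arrb2, 9.49 ± 0.995 for Grk6, 8.84 ± 0.825 for Adrbk2 and 7.57 ± 0.790 for Grk5 (SD, n = 8). By median Grk4 was at 8.08, between Adrbk2 and Grk5. The order of means came from these same 8 libraries, so tests between neighbours in it are descriptions and no support for the order. Of the 6 pairs of neighbours only the first had an adjusted p under 0.05. Adrbk1 exceeded Arrb1 in 8 of 8 libraries by 0.25 on the log2 scale (two-sided exact sign-flip permutation p = 0.00781, the smallest that 8 libraries allow, adjusted p = 0.0469). Adjusted p-values of the other pairs ran from 0.164 to 0.766. In the authors' FPKM Grk6 lay above Arrb2 and Adrbk2 in 8 of 8 libraries (26.8 ± 2.38 FPKM, against 10.9 ± 1.80 and 11.2 ± 1.54), and the same held per kilobase of positions from which a read fits into a counted row. A read lies inside a counted row from only 40.8% of Grk6 positions. If reads across exon borders are not counted, this lowers the place of Grk6 in the order by counts. In TKO the order by counts was Arrb1, Arrb2, Adrbk1, Adrbk2, Grk4, Grk6 and Grk5, and in HAP Arrb1, Adrbk1, Arrb2, Adrbk2, Grk4, Grk6 and Grk5.

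Beyond the family, 57 genes of receptor desensitization, endocytosis and arrestin scaffolding were read as a list, of which 52 passed the filter on low counts. In TKO against WT 1 rose and 0 fell, with a median log2 fold change of 0.01, the same as over all genes tested. In HAP against WT 1 rose and 1 fell, with a median of -0.01 beside 0.01 over all genes. In TKO against HAP edgeR called 0, with 8 unadjusted p-values under 0.05 and a median of 0.05 beside 0.00 over all genes. DESeq2 also called 0 of the list there, where it called 269 of 13941 genes. By edgeR the list thus had 1.92%, 3.85% and 0% of its tested members called, beside 1.19%, 2.24% and 0.395% of all genes.

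The gene that rose was Prkcd, which encodes protein kinase C delta, of a kinase family that also phosphorylates receptors. It stood at 55.3 ± 6.10 CPM in TKO (SD, n = 7) and 54.8 ± 6.17 CPM in HAP, against 44.0 ± 4.26 CPM in WT (SD, n = 8 each). It rose by 0.32 ± 0.08 in TKO and by 0.31 ± 0.08 in HAP (edgeR adjusted p = 0.0369 and 0.0311). The TKO call was lost without any of WT replicates 1, 2, 3, 4, 5, 7 and 8 or TKO replicates 1, 2, 4 and 6, and the HAP call without any of WT replicates 1, 2, 7 and 8 or HAP replicate 7. Adjusted p-values over all alternatives reached 0.107 in TKO and 0.0749 in HAP. The summed level of 6 leukocyte markers, none of them at 0, ran from 70.7 to 101.9 CPM in TKO, from 37.9 to 76.4 CPM in HAP and from 53.3 to 79.3 CPM in WT libraries, and its part in the Prkcd result was not tested. Actn1, which encodes the actin crosslinker alpha-actinin 1, a protein known to bind and inhibit GRKs, fell in HAP against WT (178.8 ± 34.0 in HAP and 238.7 ± 28.1 CPM in WT, SD, n = 8 each; log2 fold change -0.42 ± 0.10, edgeR adjusted p = 0.0283). That call was lost without any of WT replicates 1, 2, 6, 7 and 8 or HAP replicates 2 and 8, with adjusted p-values up to 0.0670. In TKO it stood at 200.04 ± 21.2 CPM (-0.26 ± 0.11, edgeR adjusted p = 0.313).

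The most abundant measured gene of each role was not called in any comparison. Among genes of clathrin-coated uptake, Ap2m1, a subunit of the AP2 adaptor that links arrestin-bound receptors to clathrin, stood at 268.2 ± 24.6 CPM in TKO, 282.02 ± 17.5 CPM in HAP and 280.3 ± 22.4 CPM in WT (-0.07 ± 0.08 in TKO and 0.01 ± 0.08 in HAP against WT). Dnm2, the dynamin that pinches off coated vesicles, gave -0.06 ± 0.10 and -0.02 ± 0.10. Among kinases, Prkaca, the catalytic subunit of protein kinase A, gave -0.08 ± 0.12 and -0.23 ± 0.11, and Akt1, which arrestin can scaffold, -0.13 ± 0.08 and -0.03 ± 0.08. Calm3, a calmodulin gene whose product inhibits GRK5, gave 0.01 ± 0.08 and 0.19 ± 0.08. The ubiquitin ligase gene Nedd4 gave 0.13 ± 0.09 and -0.06 ± 0.08, the GRK-interacting protein gene Git1 0.00 ± 0.12 and -0.05 ± 0.12, and the alpha-arrestin gene Txnip -0.08 ± 0.10 and -0.17 ± 0.10. The visual kinase gene Grk1 gave -0.39 ± 0.26 and -0.55 ± 0.26, with the high value in WT replicate 2 given above.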

How the data were processed

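Rows of the 7 genes were taken from the authors' deposited count table, integer reads per feature in 23 heart libraries. The submitters' processing notes name TopHat2 (version 2.0.10) with Bowtie2, the mm10 build and HTSeq for these counts, per the labels; the counting mode is not given in the sources used here. For the authors' FPKM table the notes name Cufflinks (version 2.1). Per the labels, libraries were rRNA-depleted, single-end and without strand.

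Exon rows of each split gene were summed. Counts were tested with edgeR (version 4.0.16; quasi-likelihood, TMM, minimum count 10, minimum total 15, group and library ID set terms) over all genes and 23 libraries in R (version 4.3.3), two-sided, with Benjamini-Hochberg adjustment and a threshold of 0.05. Exon rows were tested in the table as deposited. The targeted genes, Nkx2-5 and Cre are left out of counts over other genes. Log2 CPM used a prior count of 1. Fits were tested on simulated data. Members, lists and exon groups were chosen with earlier results of these data known. Named were the members, exon rows with the smallest p, list genes called, the most abundant gene of each role, and the 3 genes most like each intact member, of which 1 is not reported here. Alternatives were DESeq2 (version 1.42.0), limma (version 3.58.1) on log2 FPKM with 0.1 or 1 added, other scaling, no filter, other covariates, subsets of libraries, and each library left out. Read-start lengths were added after the data had been seen. Same-numbered libraries of different groups were checked for pairing by the correlation of their deviations, which passed 0.1 in 1 of 7, 1 of 8 and 3 of 7 pairs, so replicate numbers were not used as pairs. The least different libraries of a group, HAP replicates 1 and 2, gave a chi-square of 5.20 per degree of freedom, so all libraries were counted.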

Additional observations from a re-analysis of the deposited data

Results flagged for a closer look

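Of 24 sets of values tested for a library far from the rest of its group, 2 stood out, where chance flags about 1 in 20. Grk4 in WT replicate 2, at 206 CPM, lay far above the other 7 WT libraries, and olfactory and vomeronasal receptor genes and Grk1 were high in that library too. Grk5 in HAP replicate 8, at 8.26 CPM, lay below the other 7 HAP libraries. That library has a lung, foregut, liver and thymus score of 1.98. Leaving out either library ended no call of a family member between genotypes. The Grk4 call between the library ID sets was not refitted without either library.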

How the results depend on the processing

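Under 35 alternatives the 3 calls in TKO and the 2 in HAP against WT, and 0 between TKO and HAP, changed only within the library ID sets. IDs 1 to 12 alone gave 2 in TKO and 1 in HAP. IDs 19 to 30 alone gave 0 in TKO and 0 in HAP. Leaving out single libraries gave 3, 2 and 0 throughout. All these counts against WT, outside IDs 19 to 30, include Grk6, whose calls follow from its nearly absent exons. The uncalled members changed sign as follows. Adrbk2 in HAP against WT was 0.16 in IDs 1 to 12, 0.14 without the high-score libraries and between -0.085 and 0.033 with single libraries left out. Arrb1 there was -0.054 and -0.044 in the first 2 of these settings. Arrb2 in HAP was 0.046 in IDs 1 to 12 and 0.0017, 0.0012 and 0.0017 in FPKM with 0.1, 1 and 0.1 without a filter, and in TKO it was -0.0083 in IDs 19 to 30. In TKO against HAP Grk4 was -0.19 without the ID set term, -0.16 with the replicate block, -0.040 with only these groups, -0.60 in IDs 1 to 12 and -0.094 without high-score libraries (-0.079 to 0.15 with single libraries left out). There Grk5 was -0.14 in IDs 1 to 12 (-0.0053 to 0.14 with single libraries left out), Grk6 0.062 without high-score libraries (-0.19 to 0.021), Arrb1 -0.0064 in IDs 19 to 30 and Prkcd between -0.028 and 0.034 with single libraries left out. No member call changed under the replicate block. Of the desensitization list, 0 were called in TKO and 1 in HAP against WT without a filter, without the ID set term and under the replicate block, and 1 in HAP with only the groups compared. Leaving out single libraries gave 0 to 1 in TKO, 0 to 3 in HAP and 0 to 2 (Ap2s1 and Prkca, without HAP replicate 3) between TKO and HAP. Exon rows called rose to 7 in TKO and 7 in HAP against WT without a filter, all in Grk6 exons 3 to 9 but Grk5 exon 8 in HAP (-2.58, edgeR adjusted p = 0.00299). With only the groups compared they were 3 in TKO, Adrbk1 exon 20 included, and 1 in HAP, and they were 1 to 3 with single libraries left out, where Grk5 exon 8 was called at times and Grk6 exon 8 missed the filter without WT replicates 1, 2, 3, 4, 5, 6 or 8. In the WT order, Grk4 over Arrb2 was -0.15 by counts, 0.36 by longest transcript and 0.54 in FPKM; Arrb2 over Grk6 was -0.011, -1.32 and, by read starts, -1.19; Arrb1 over Grk4 was -0.21 in FPKM. Grk6 over Adrbk2 was 1.27 in FPKM and 1.39 by read starts, and Adrbk2 over Grk5 0.43 by longest transcript and -0.18 by read starts. The correlation of Adrbk1 and Adrbk2 in TKO was 0.17 in FPKM. Genes called over the whole table were 292, 561 and 269 with DESeq2, against 166, 312 and 55, and the cause was not tested. HAP replicate 2, at 1757257 counts, is the shallowest library, and few counts per exon row limit the exon results.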
